A study of Mus musculus with 6 samples.

Results

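The genes described here are 10 genes of the circadian clock, *Npas2*, *Clock*, *Arntl* (the gene of BMAL1), *Per1*, *Per2*, *Per3*, *Cry1*, *Nr1d1*, *Nr1d2* and *Dbp*, out of 55426 genes measured in the mouse abdominal aorta. They were taken from the expression table by gene symbol, each symbol matched 1 row, and all 10 were among the 15775 genes that averaged 0.5 TPM or more. TPM gives a gene's transcript level per unit of transcript length, as a part of the library's total. The set was chosen by a result in this comparison, the low *Npas2* of the knockout aortas. The difference between groups is therefore given for the 10 genes as a description, with its standard error and interval and no p-value.

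The study compared abdominal aortas of male *Prdm16*SMKO mice with those of male control mice, 3 libraries per group, to describe the expression profile that goes with loss of PRDM16 in vascular smooth muscle cells (VSMCs). *Prdm16*SMKO mice (labelled Prdm16 knockout) were *Prdm16* fl/fl mice carrying *Myh11*-CreERT2, a tamoxifen-inducible Cre recombinase under the *Myh11* promoter, and the study describes the controls as wild-type mice carrying *Myh11*-CreERT2. The Cre cassette lies on the Y chromosome, the *Myh11* promoter is also active in smooth muscle outside vessels, and the strain is given as C57BL/6J. Male mice of 8 to 10 weeks were given tamoxifen by gavage at 75 mg/kg per day on 5 days, and RNA was taken 2 weeks later. The labels number the libraries as replicates without saying what each was taken from, so p-values measure the spread between these libraries, which may be technical. The hour of the day at which aortas were collected is not given in the sources used here. With 1 collection per library, a change in the level of a clock gene and a change in its phase cannot be told apart.

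The circadian clock is a loop of transcription factors that runs in most cells, those of the vessel wall included. Its positive arm is a dimer of ARNTL with CLOCK or with the CLOCK paralog NPAS2, which binds E-box sequences and switches on the *Per* and *Cry* genes, the REV-ERB genes *Nr1d1* and *Nr1d2*, and output genes such as *Dbp*. PER and CRY proteins then block that dimer, and REV-ERB proteins repress *Arntl*, *Npas2* and *Clock*, so that in many tissues *Arntl* and *Npas2* are high at the time of day when *Dbp* and the REV-ERB genes are low.

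The promoters of 4 of the genes are shown, that of *Npas2* because this gene differed most. Those of *Arntl*, *Cry1* and *Per3* hold letters that match motifs of a search described below. Sequences are from RefSeq on GRCm38.p6, read 5′ to 3′ on the gene's own strand and ending at or close before a RefSeq start of transcription. Stretches annotated as exon were left out. Capitals mark matches, on either strand, to the motifs searched. The *Npas2* stretch lies inside the gene's full annotated span, in the first intron of a shorter GENCODE model with an upstream start and directly before the GENCODE start of the longer models, which is 60 bases upstream of the RefSeq start. *Npas2* is shown at chr1:39194022-39194211 (plus strand, 60 bases next to the start left out), *Arntl* at chr7:113207215-113207464 (plus strand), *Cry1* at chr10:85185065-85185304 (minus strand, 10 bases left out) and *Per3* at chr4:151044666-151044915 (minus strand).
Npas2: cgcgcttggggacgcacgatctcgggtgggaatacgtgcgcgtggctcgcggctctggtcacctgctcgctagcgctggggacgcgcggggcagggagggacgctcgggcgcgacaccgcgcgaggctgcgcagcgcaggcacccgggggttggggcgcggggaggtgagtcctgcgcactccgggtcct
Arntl: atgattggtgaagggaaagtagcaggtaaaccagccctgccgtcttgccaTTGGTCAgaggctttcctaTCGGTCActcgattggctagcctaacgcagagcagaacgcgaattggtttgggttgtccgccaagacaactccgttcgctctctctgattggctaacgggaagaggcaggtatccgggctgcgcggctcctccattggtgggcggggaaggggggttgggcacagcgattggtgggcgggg
Cry1: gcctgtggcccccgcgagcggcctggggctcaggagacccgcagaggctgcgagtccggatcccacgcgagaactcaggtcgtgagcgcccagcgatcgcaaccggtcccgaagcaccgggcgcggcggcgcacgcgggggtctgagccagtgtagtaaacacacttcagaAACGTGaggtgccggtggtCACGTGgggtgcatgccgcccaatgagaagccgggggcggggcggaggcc
Per3: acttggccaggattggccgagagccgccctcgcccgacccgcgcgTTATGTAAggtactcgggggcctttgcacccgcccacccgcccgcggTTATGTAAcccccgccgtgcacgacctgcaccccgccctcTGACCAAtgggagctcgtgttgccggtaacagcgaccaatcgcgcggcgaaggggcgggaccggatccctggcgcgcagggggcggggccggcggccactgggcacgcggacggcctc

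Windows of 250 bases before to 50 after the start were available for 9 of the 10 genes (13 windows, *Per2* not among them), out of 32851 windows of 27025 genes. Both strands were searched for 6 motifs, and a match is a description of the letters, not a binding site. The E-box CACGTG, present in 7.15% of all windows, was found in *Cry1* (60 bases before the start) and *Per1* (166 bases before). Its variant CACGTT (4.68% of windows) was found on the reverse strand in *Cry1* (79 bases before) and *Nr1d1* (28 bases before). The half-site AGGTCA of REV-ERB receptors (16.3% of windows) was in *Clock*, *Per1*, *Nr1d2* and *Arntl*. In *Arntl* it lay 31 bases after the downstream of its starts, outside the stretch shown above. The form TNGGTCA (11% of windows), where N is any base, can overlap AGGTCA. It was in *Arntl* at 200 and 181 bases before the upstream of its starts, the pair in capitals above. That pair does not hold AGGTCA. The form was also on the reverse strand in *Per3* (118 bases before). The D-box TTATGTAA, the element bound by DBP, was in 0.938% of windows and occurred at 205 and 158 bases before the start of *Per3*. The CRE TGACGTCA (1.79% of windows) was in none of the 13 windows. None of the 6 motifs was in the windows of *Npas2* and *Dbp*, which says only that those letters are not in those windows.

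Among the clock genes, all 3 of the positive arm were lower in every *Prdm16*SMKO library than in every control library, and 5 of the other 7 (*Per2*, *Per3*, *Cry1*, *Nr1d2* and *Dbp*) were higher in every *Prdm16*SMKO library. *Per1* and *Nr1d1* overlapped between the groups. Of all genes tested, 5.76% were lower and 7.02% higher in the knockout without overlap. The choice of the members used this comparison, and nothing is read from their share. *Npas2* was the only one of the 10 among the 56 genes called by limma at a Benjamini-Hochberg adjusted p under 0.05. Those 56 were 0.355% of genes tested (0.184% called higher and 0.171% called lower in the knockout). The study's own analysis of these aortas called more genes at that threshold. *Npas2* was not called when control replicate 2 or control replicate 3 was left out, and 0 members were called then. The median log2 fold change of the 10 genes was 0.28, against 0.02 for all genes tested.

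**Figure D1:**
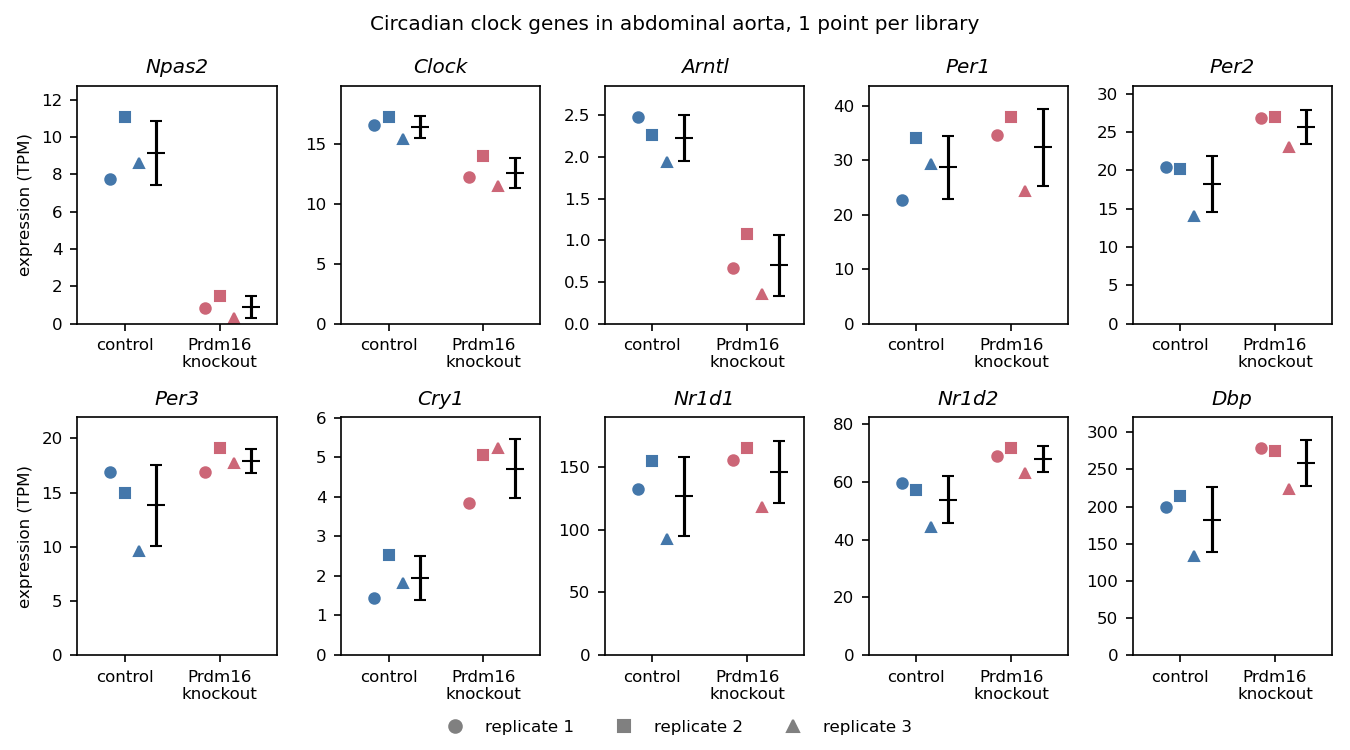
Expression in TPM (linear axes from 0) of the 10 clock genes in the 3 control (blue) and 3 *Prdm16*SMKO (red) libraries, 1 point per library with its replicate number as the symbol, and the mean with SD in black. *Npas2*, *Clock* and *Arntl* lie lower in the knockout, *Per2*, *Per3*, *Cry1*, *Nr1d2* and *Dbp* lie higher, with *Per3* separated only by 16.90 against 16.86 TPM, and *Per1* and *Nr1d1* overlap.

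*Npas2* (ENSMUSG00000026077, GRCm38 chr1:39193731-39363236, plus strand) showed the largest difference of the 10. Control replicates 1, 2 and 3 held 7.73, 11.07 and 8.62 TPM, whereas *Prdm16*SMKO replicates 1, 2 and 3 held 0.81, 1.49 and 0.32 TPM. The highest knockout library was thus well under the lowest control. Means were 9.14 ± 1.73 TPM for control and 0.873 ± 0.588 TPM for *Prdm16*SMKO aortas (SD, n = 3 each), a 10.5-fold ratio of control to knockout means. The log2 fold change on the scale of log2(TPM + 0.5), which understates changes of low genes, was −2.89 with a standard error of 0.33 (95% interval −3.64 to −2.14). By this measure *Npas2* stood 8th from the lowest of the 15775 genes. These are whole aortas, in which fewer cells of a type and less RNA per cell cannot be told apart.

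*Arntl* (ENSMUSG00000055116, chr7:113207465-113314126, plus strand), the common partner of CLOCK and NPAS2, was at 2.48, 2.26 and 1.94 TPM in the control libraries and at 0.67, 1.08 and 0.35 TPM in the *Prdm16*SMKO libraries. The means were 2.23 ± 0.272 and 0.7 ± 0.366 TPM (SD, n = 3 each), with a log2 fold change of −1.22 (standard error 0.31, 95% interval −1.93 to −0.52). Within the knockout group, replicate 2 was highest and replicate 3 lowest, as in 7 of the 10 clock genes. *Clock* (ENSMUSG00000029238, chr5:76209868-76304792, minus strand), which encodes the paralog of NPAS2, was at 16.63, 17.26 and 15.38 TPM in control and at 12.24, 13.96 and 11.51 TPM in *Prdm16*SMKO libraries. Its difference was small, with means of 16.4 ± 0.957 and 12.6 ± 1.26 TPM and a log2 fold change of −0.38 (standard error 0.15, 95% interval −0.73 to −0.02). *Clock* was also the steadiest of the 10 within groups, its within-group SD of 0.11 on the log2 scale being at the 3.94th percentile of all genes tested, whereas that of *Npas2* was at the 83.4th percentile.

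The makeup of the paralog pair differed along with its total. *Npas2* was 31.7%, 39.1% and 35.9% of the summed *Npas2* and *Clock* TPM in control replicates 1, 2 and 3, and 6.21%, 9.64% and 2.7% in *Prdm16*SMKO replicates 1, 2 and 3. The mean share was 35.6 ± 3.68% in control and 6.19 ± 3.47% in knockout (SD, n = 3 each), and the sum of the pair was 25.6 ± 2.4 TPM and 13.4 ± 1.84 TPM. *Arntl2*, a paralog of *Arntl* picked out after its values were seen, was at 3.06 ± 0.992 TPM in control and 3.44 ± 0.769 TPM in knockout, with overlapping groups. *Arntl* accordingly made up 43.0 ± 5.94% of the summed *Arntl* and *Arntl2* TPM in control and 16.1 ± 4.58% in knockout (SD, n = 3 each), while the sums were 5.29 ± 1.26 and 4.14 ± 1.12 TPM.

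**Figure D2:**
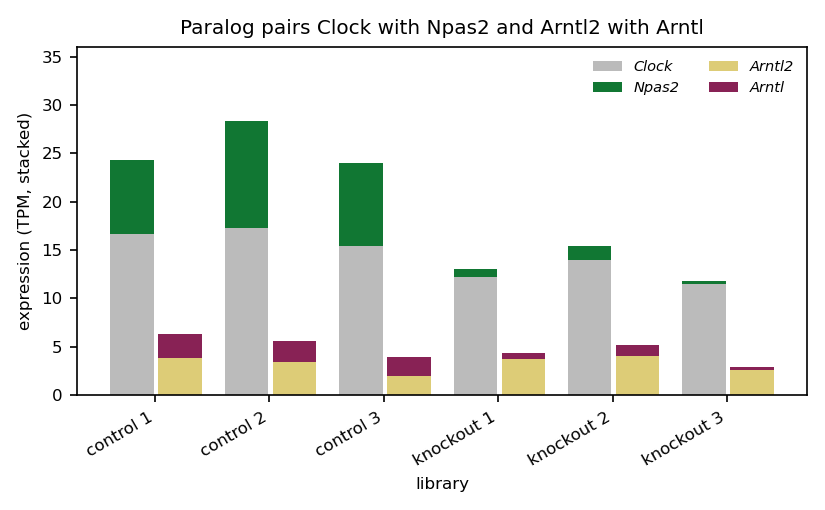
Stacked expression in TPM of *Clock* with *Npas2* (left bar of each pair) and of *Arntl2* with *Arntl* (right bar) in each of the 6 libraries, 1 library per pair of bars. *Npas2* was 31.7% to 39.1% of the left bar in control and 2.7% to 9.64% in *Prdm16*SMKO libraries.

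Among the negative-arm genes of the 10, *Cry1* had the largest difference. *Cry1* (ENSMUSG00000020038, chr10:85131700-85185064, minus strand), a cryptochrome that represses the ARNTL dimer and whose promoter above holds both forms of the E-box, was at 1.45, 2.54 and 1.82 TPM in control and at 3.85, 5.06 and 5.22 TPM in *Prdm16*SMKO libraries. The means were 1.94 ± 0.554 and 4.71 ± 0.749 TPM (SD, n = 3 each), and the log2 fold change was 1.11 (standard error 0.24, 95% interval 0.56 to 1.66). Its paralog *Cry2*, named after its values were seen, was at 16.7 ± 2.9 and 17.8 ± 2.36 TPM with overlapping groups, so that *Cry1* stayed the lower of the cryptochromes in both groups.

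The period genes encode the partners of the cryptochromes. *Per2* (ENSMUSG00000055866, chr1:91415982-91459324, minus strand) was at 20.48, 20.20 and 14.02 TPM in control and at 26.84, 26.97 and 23.09 TPM in *Prdm16*SMKO libraries, with means of 18.2 ± 3.65 and 25.6 ± 2.2 TPM and a log2 fold change of 0.50 (standard error 0.19, 95% interval 0.07 to 0.92) that was 0.32 without control replicate 3. *Per3* (ENSMUSG00000028957, chr4:151003652-151044665, minus strand, 3.27 Mb from *Prdm16*) was at 16.86, 14.96 and 9.61 TPM in control and at 16.90, 19.07 and 17.69 TPM in knockout libraries. Its groups were barely separate, the interval of its log2 fold change of 0.40 (standard error 0.22) ran from −0.10 to 0.89, and they overlapped after scaling by size factors, with 16.66 in control replicate 1 and 16.15 in knockout replicate 1. The log2 fold change of *Per3* was 0.16 without control replicate 3 and 0.13 with limma's array weights. *Per1* (ENSMUSG00000020893, chr11:69095217-69109960, plus strand), which also responds quickly to signals from outside the clock, was at 22.64, 34.06 and 29.26 TPM in control and at 34.64, 37.90 and 24.38 TPM in knockout libraries. The spread of *Per1* within each group exceeded the difference between the means of 28.7 ± 5.73 and 32.3 ± 7.06 TPM, and the log2 fold change was 0.17 (standard error 0.22, 95% interval −0.33 to 0.66), and it was 0.01 without control replicate 1, 0.35 without knockout replicate 3 and 0.48 with array weights.

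*Nr1d1* and *Nr1d2* encode REV-ERBα and REV-ERBβ, repressors that link the loop back to *Arntl* and *Npas2*. *Nr1d1* (ENSMUSG00000020889, chr11:98767932-98775333, minus strand) was at 132.35, 154.80 and 92.86 TPM in control and at 155.68, 165.04 and 117.93 TPM in *Prdm16*SMKO libraries. These ranges overlapped, and the log2 fold change of 0.22 (standard error 0.22) had an interval from −0.28 to 0.72 and was 0.02 without control replicate 3 and 0.38 without control replicate 2. *Nr1d2* (ENSMUSG00000021775, chr14:18204054-18239127, minus strand) was at 59.80, 57.26 and 44.48 TPM in control and at 69.14, 71.65 and 63.03 TPM in knockout libraries, with means of 53.8 ± 8.21 and 67.9 ± 4.43 TPM (SD, n = 3 each). Its log2 fold change was 0.34 (standard error 0.16, 95% interval −0.02 to 0.71), and 0.21 without control replicate 3.

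*Dbp* (ENSMUSG00000059824, chr7:45705088-45710203, plus strand), a D-box transcription factor and direct output of the positive arm, was the most abundant of the 10 in both groups. It was at 199.45, 214.89 and 133.37 TPM in control and at 278.29, 275.05 and 223.05 TPM in *Prdm16*SMKO libraries. Every knockout library was above every control library, with means of 183 ± 43.3 and 259 ± 31.0 TPM (SD, n = 3 each) and a log2 fold change of 0.52 (standard error 0.21, 95% interval 0.06 to 0.99). Without control replicate 3, the lowest library, the log2 fold change of *Dbp* was 0.31.

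By mean TPM, the order in control aortas was *Dbp*, *Nr1d1*, *Nr1d2*, *Per1*, *Per2*, *Clock*, *Per3*, *Npas2*, *Arntl* and *Cry1*. Neighbours whose libraries overlapped were *Dbp* and *Nr1d1*, each pair in the run from *Per2* through *Clock* and *Per3* to *Npas2*, and *Arntl* and *Cry1*. In *Prdm16*SMKO aortas the order was *Dbp*, *Nr1d1*, *Nr1d2*, *Per1*, *Per2*, *Per3*, *Clock*, *Cry1*, *Npas2* and *Arntl*. Only *Per1* with *Per2* and *Npas2* with *Arntl* overlapped there. *Cry1* thus passed from a range shared with *Arntl* and under that of *Npas2* to a range above both.

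The libraries of one group also differed among themselves. Control replicate 3 was the lowest control in 7 of the 10 genes, among them *Per2*, *Per3*, *Nr1d1*, *Nr1d2* and *Dbp*, and control replicate 2 was the highest in 6. In the knockout group, replicate 3 was the lowest in 8 and replicate 2 the highest in 8. Transcripts of the 45S ribosomal RNA locus, which take part of every TPM total, were 25.0%, 15.6% and 31.4% of the total in control replicates 1, 2 and 3 and 15.7%, 29.9% and 21.7% in *Prdm16*SMKO replicates 1, 2 and 3. Their part in the order of the libraries was not tested. With the TPM values rescaled without mitochondrial and 45S transcripts, the same 8 genes less *Per3* did not overlap.

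**Figure D3:**
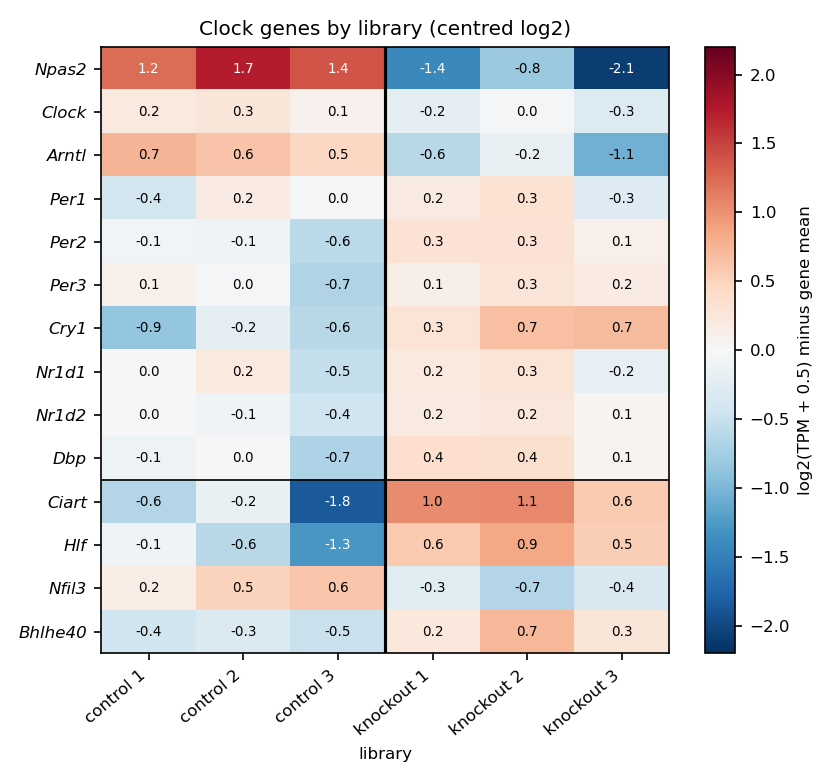
Expression of the 10 clock genes and 4 other clock-related genes by library as log2(TPM + 0.5) minus the gene's mean over the 6 libraries, red above and blue below that mean, with the value in each cell. The control columns are positive for *Npas2*, *Clock*, *Arntl* and *Nfil3*, and within the controls, replicate 3 has the lowest values of *Dbp*, *Ciart* and *Hlf*.

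A ratio of a gene to another in the same library depends little on that library's total. All 21 log2 ratios of a positive-arm gene (*Npas2*, *Clock* or *Arntl*) to one of the other 7 genes were lower in every *Prdm16*SMKO library than in every control library, a count that the choice of the genes helps to fix. The log2 ratio of *Npas2* to *Cry1*, on TPM + 0.5, was 2.08, 1.93 and 1.97 in control replicates 1, 2 and 3 and −1.73, −1.48 and −2.80 in *Prdm16*SMKO replicates 1, 2 and 3. The ratio of *Arntl* to *Dbp* was −6.04 ± 0.26 in control and −7.79 ± 0.31 in knockout (SD, n = 3 each). That of *Clock* to *Per2* was −0.13 ± 0.23 and −1.0 ± 0.09. The ratio of *Npas2* to *Cry1* varied little among the controls, where its SD was 0.08 around a mean of 1.99, and more among the knockout libraries, where it was 0.70 around −2.01.

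**Figure D4:**
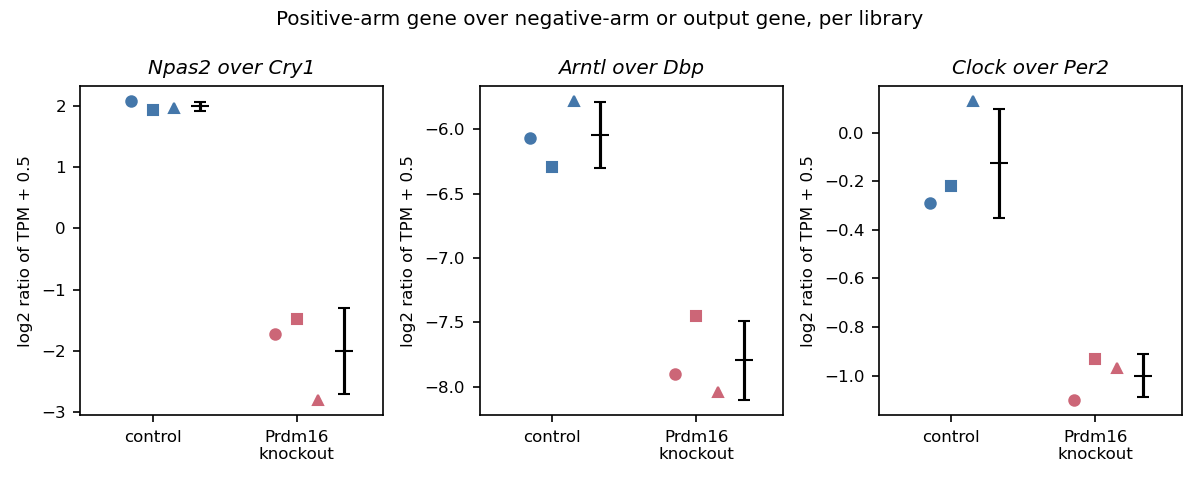
Log2 ratio of a positive-arm gene to a negative-arm or output gene (TPM + 0.5; each panel has its own axis), 1 point per library, with mean and SD in black, for 3 of the 21 pairs. In each panel the 3 *Prdm16*SMKO libraries (red) lie below the 3 control libraries (blue), and the means for *Npas2* over *Cry1* are 1.99 and −2.01.

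The wider clock was followed in 31 further genes of the loop, its kinases and ubiquitin ligases, and its outputs, of which 30 were tested. The number called by limma at an adjusted p under 0.05 was 0. Without adjustment, 9 of the 30 had a p under 0.05 (1 lower and 8 higher in the knockout), as had 8.74% of all genes tested. Of the 30 genes, 7 had lower and 23 higher means on the log2 scale in the knockout, with a median log2 fold change of 0.14 against 0.02 for all genes, and 1 was lower and 10 were higher without overlap, where 5.76% and 7.02% of all genes were. With limma's array weights 3 were called, *Bhlhe40*, *Ciart* and *Tsc22d3*, the last named after its values were seen.

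The 4 described here were repressors of the loop and output factors. *Ciart*, a repressor of the ARNTL dimer, was at 4.73, 6.79 and 1.78 TPM in control and at 16.42, 16.55 and 11.70 TPM in *Prdm16*SMKO libraries (log2 fold change 1.78, standard error 0.39, limma adjusted p = 0.129, and 0.0158 to 0.373 over the alternatives). *Bhlhe40*, a repressor that competes for E-boxes, was at 12.33, 13.55 and 11.96 TPM in control and at 20.06, 28.47 and 20.58 TPM in knockout libraries (log2 fold change 0.83, standard error 0.18, limma adjusted p = 0.128, range 0.0149 to 0.422). Both were higher in 3 of 3 knockout libraries than in any control.

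The D-box factors next to *Dbp* showed both directions. *Hlf*, an activator of the same family as *Dbp*, was at 19.26, 13.12 and 8.03 TPM in control and at 30.37, 36.91 and 29.51 TPM in *Prdm16*SMKO libraries (log2 fold change 1.31, standard error 0.28, limma adjusted p = 0.128, range 0.0718 to 0.343). With limma's array weights the log2 fold change of *Hlf* was 0.81. *Nfil3*, the repressor at D-boxes and a target of REV-ERB like *Arntl*, was at 6.63, 8.56 and 9.22 TPM in control and at 4.77, 3.56 and 4.50 TPM in knockout libraries (log2 fold change −0.85, standard error 0.20, limma adjusted p = 0.174, range 0.0753 to 0.438). *Nfil3* was the 1 gene of the 30 that was lower in the knockout without overlap. The 10 kinases and ubiquitin ligases of the list all overlapped between the groups, with log2 fold changes from −0.21 to 0.19.

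**Figure D5:**
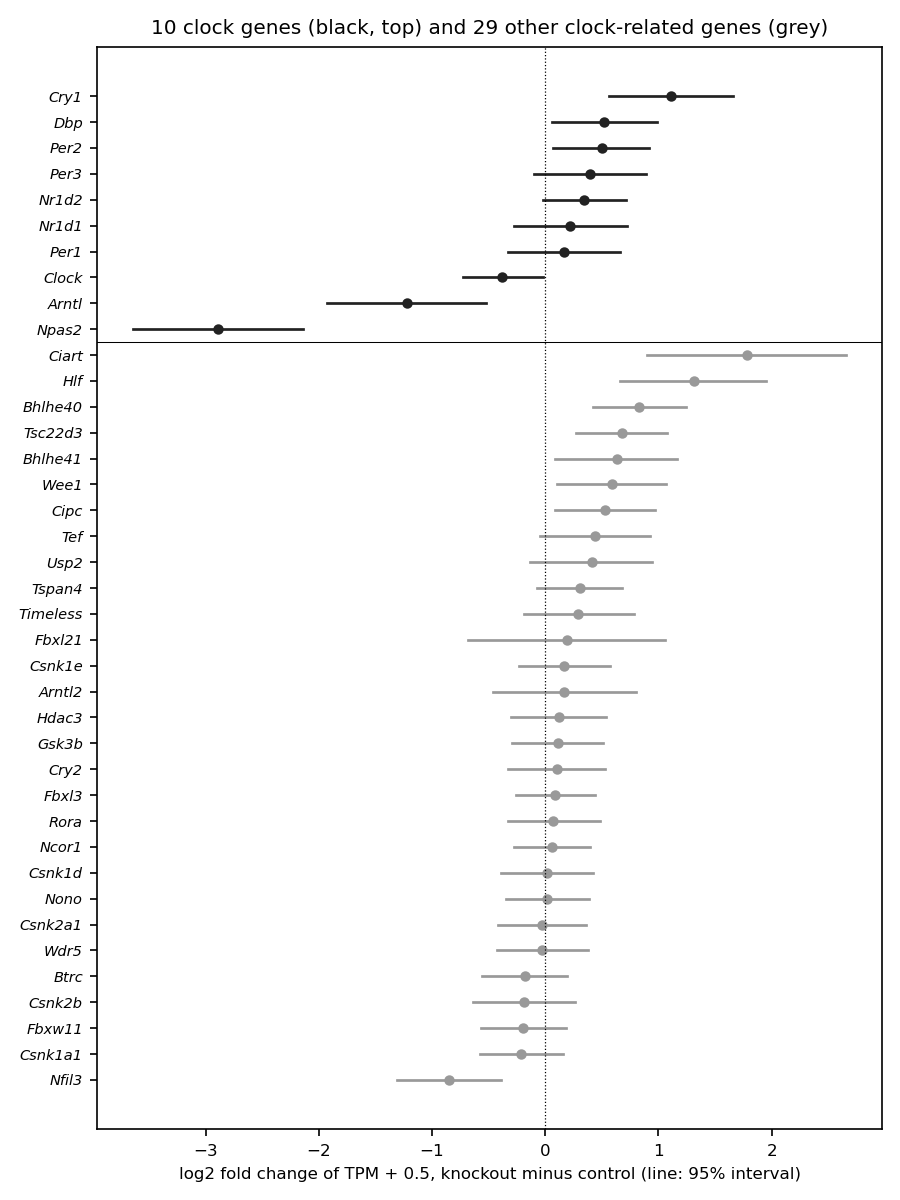
Log2 fold change (TPM + 0.5, *Prdm16*SMKO minus control, 3 libraries per group) with its 95% interval from limma for the 10 clock genes (black) and 29 other clock-related genes (grey). *Npas2* at −2.89 and *Ciart* at 1.78 are the ends of the range, and the kinases and ubiquitin ligases lie around 0.

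The genes whose pattern over the 6 libraries was most like that of *Npas2* were sought among the 9668 genes that averaged 5 TPM or more, by the root mean square difference of centred log2 values. They were *Tmem82* (0.373), *Slc25a34* (0.408), *Eln* (0.598), *Angpt4* (0.637) and *Arc* (0.639). *Tmem82*, a transmembrane protein gene, and *Slc25a34* are both on chromosome 4, as is *Prdm16*. *Tmem82* was at 9.6 ± 3.3 TPM in control and 1.06 ± 0.373 TPM in knockout, and *Slc25a34* at 19.5 ± 2.92 and 1.72 ± 0.49 TPM. *Eln*, the gene of elastin, was at 2690 ± 793 and 765 ± 172 TPM (SD, n = 3 each). Of the other clock genes, *Arntl* was the most like *Npas2*, with a difference of 0.858, followed by *Clock* with 1.3. *Cry1* was the least like it, with 2.04. The values span both groups, so this measure largely restates the difference between groups by which the set was chosen. The order of the clock genes by this measure was that of their log2 fold changes.

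*Prdm16*, the targeted gene, was at 33.42, 36.83 and 30.77 TPM in control and at 20.75, 27.67 and 14.77 TPM in *Prdm16*SMKO libraries (log2 fold change −0.70, limma adjusted p = 0.376), lower in 3 of 3 knockout libraries. Its knockout libraries had the order shared by 7 of the 10 clock genes, some lower and some higher in the knockout. The share of all genes with this order was not counted, so nothing is read from it. Immediate-early genes, the quick responders to stimulation and handling, had lower means in the knockout in 14 of 14 cases, where 7223 of all 15775 genes had. Of the 14, 6 were called lower by limma, against 0.171% of all genes (0 without control replicate 2, and at most 3 with any library left out). The median log2 fold change of the 14 was −1.31, and their summed levels were 676 to 923 TPM in control and 246 to 411 TPM in knockout. The groups overlapped in 3 of them, *Junb*, *Egr2* and *Ier2*, named with their values in view. Of 12 glucocorticoid-responsive genes, 10 had higher and 2 lower means in the knockout, 0 were called by limma, 4 (33.3%) had an unadjusted p under 0.05 (2 lower, 2 higher), against 8.74% of all genes, and the median log2 fold change was 0.08. The part of either set of genes in the levels of the clock genes was not tested.

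VSMC markers were summed at 14800 to 25100 TPM in control and 11400 to 17400 TPM in *Prdm16*SMKO libraries, with 6 of 7 genes lower in the knockout. Summed endothelial markers were at 261 to 327 and 289 to 488 TPM, and fibroblast markers at 1140 to 1300 and 935 to 1670 TPM. Adipocyte markers were at 435 to 915 and 702 to 2120 TPM (6 of 7 genes higher), and brown adipocyte markers at 84.6 to 267 and 19.8 to 706 TPM. Both sums were highest in knockout replicate 3, the lowest of its group in 8 of the 10 clock genes. In the control group both were lowest in replicate 3, the lowest control in 7 of the 10. Among the brown adipocyte markers, *Ucp1* and *Elovl3* were listed at 0 in at least 1 library. Macrophage markers were at 70.2 to 110 and 110 to 201 TPM, with 7 of 7 genes higher in the knockout. Nerve markers were at 11.6 to 78.6 and 15.2 to 277 TPM, with 6 of 6 genes higher (*Th* and *Dbh* at 0 in at least 1 library). Skeletal muscle markers were at 4.78 to 10.9 and 1.97 to 46.3 TPM (*Myh4* at 0 in at least 1 library). In each of these lists 0 genes were called by limma, and those with an unadjusted p under 0.05 were 5 of the 7 macrophage markers (71.4%, all higher) and 0 to 2 genes of each other list, against 8.74% of all genes. The part of these cells in the clock gene levels was not tested.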

How the data were processed

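RNA of abdominal aortas of male *Prdm16*SMKO and control mice, 3 libraries per group, was sequenced after polyA selection as 151 bp read pairs, with an average depth of 40 M pairs per sample per the labels. The authors deposited TPM values, and the submitters' processing notes name cutadapt 2.3, FastQC 0.11.8, STAR 2.7.8a, RSEM 1.3.3, MultiQC 1.7 and GRCm38, without their settings. The deposited TPM table keeps no read counts, so the depth of each library and its counting error are unknown.

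For the 15775 genes that averaged 0.5 TPM or more, log2(TPM + 0.5) was compared by limma 3.58.1 in R 4.3.3 (linear model, variances moderated with a trend, two-sided, Benjamini-Hochberg adjustment over all genes tested). Genes with an adjusted p under 0.05 are named as called. The smallest two-sided p of an exact permutation test with 3 and 3 libraries is 0.1, and none was used. Positions are from GENCODE M21 on GRCm38. Tables and figures were made in Python 3.11.15 with numpy 2.4.6, pandas 2.3.3 and matplotlib 3.10.9.

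The members and all gene lists (wider clock, immediate-early, glucocorticoid-responsive and 8 marker lists) were chosen with earlier results of these data known. *Tsc22d3* is in both the wider clock and the glucocorticoid list, and *Arc* is both an immediate-early gene and one of those most like *Npas2*. The text names the 10 members, *Prdm16*, of the wider list the called genes and the 5 with the largest log2 fold change, and the 5 genes most like *Npas2*, except that 1 gene of the wider list, which is in its counts, is not reported here. Other genes were picked out with their values in view. The 15 alternatives used pseudocounts of 0.1 and 1, no minimum, a minimum of 2 TPM, median-of-ratios size factors, TPM without mitochondrial and 45S transcripts, no trend, array weights, a replicate block, and each library left out.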

Additional observations from a re-analysis of the deposited data

How the results depend on the processing

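Over the 15 alternatives, the log2 fold changes of the clock genes kept their direction (*Arntl* over 14, being under the minimum of 2 TPM). They ran from −3.43 to −2.47 for *Npas2*, −1.64 to −0.94 for *Arntl*, −0.45 to −0.32 for *Clock* and 0.96 to 1.36 for *Cry1*, and came closest to 0 in *Per1* (0.01 without control replicate 1) and *Nr1d1* (0.02 without control replicate 3). With either rescaling 7 instead of 8 clock genes did not overlap, and without knockout replicate 3 all 10 did not. *Npas2* was the 1 member called in 10 alternatives, 3 were called with array weights (*Npas2*, *Arntl* and *Cry1*), and 0 with no minimum, with the replicate block, and without control replicate 2 or 3. Causes were not tested.

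Of all genes, 56 were called (29 higher, 27 lower), and 10 with no minimum, 33 without a trend, 123 without mitochondrial and 45S transcripts (55 higher, 68 lower), 153 with size factors (60 higher, 93 lower) and 494 with array weights (277 higher, 217 lower). Leaving out 1 library gave 5 (without control replicate 2) to 61 (without knockout replicate 1). The median log2 fold change of all genes moved to 0.11 without control replicate 2 and to −0.07 without control replicate 3. Of the wider clock list, 3 genes were called with array weights and 0 otherwise. Of the immediate-early genes 6 were called, with 0 under no minimum, 2 without a trend, 10 with array weights and 0 (without control replicate 2) to 3 when a library was left out. The replicate numbers did not pair the samples (correlations of same-numbered libraries −0.131, −0.11 and 0.0188), and with the replicate block 4 genes were called, 1 of them immediate-early. With 3 libraries per group and no read counts, the precision of low genes such as *Arntl* is not known beyond the spread shown.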
